A study of Mus musculus with 8 samples.

Results

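The comparison described here set the libraries numbered 1 against the libraries numbered 2 in a study of embryonic mouse lung. All 8 libraries of the study entered it, 4 with the number 1 and 4 with the number 2. Each number was held once by every group: mutant males, mutant females, control males and control females. The number comes from the sample titles, which do not say what it marks (a litter, a day, a preparation or only a count), so a difference by number has no named source here. The members were all genes of the count table. The working name of the comparison, a maturation axis, is set beside gene lists. These lists were chosen with earlier results of these data known, so they do not test the name.

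RNA was sequenced from whole C57BL lungs at E17.5, a late fetal stage. These were dissected with oesophagus, trachea and bronchi taken off. Mutant embryos expressed a constitutively active form of the TGF-β receptor 1, which signals without ligand, and the labels place this activation in the lung epithelium. Control embryos are labelled only as control, and no source used here names the alleles or the driver behind the mutants. The 4 groups of 2 libraries shared age, tissue and strain background. The titles number the 2 libraries of a group as lung 1 and lung 2, and no label names the embryo of either. The p-values measure only how far these samples spread. How much of that spread is technical and how much lies between lungs was not tested.

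In the last days before birth the mouse lung turns from a branching organ into a gas exchange surface. Epithelial tips stop branching and give rise to type 1 cells, the flat cells through which gas diffuses, and type 2 cells, which make surfactant, the lipid and protein film that keeps air spaces open. Cell division slows, the epithelium gains the sodium channels and water channels that clear lung liquid, and glucocorticoid hormone from the fetus and mother hastens these steps.

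Of 18164 genes tested, 2181 differed by number (12.0%), with 1241 higher (6.83%) and 940 lower (5.18%) in the libraries numbered 1. Surfactant, type 1 cell, sodium channel and glucocorticoid response genes were among those higher, and all 40 genes of a cell cycle list were lower. The test was edgeR's quasi-likelihood test with the group as a block, so that each number 1 library was set against the number 2 library of its own group, and a gene was called at an adjusted p under 0.05. Most differences were small: the median absolute log2 fold was 0.42 over the called genes and 0.15 over all genes. At least a 2-fold difference was seen in 99 of the higher and 65 of the lower genes. In 2057 of the 2181 the difference had the same sign in all 4 groups. Across all genes tested, 17.1% were higher in number 1 in all 4 groups and 15.4% were lower in all 4.

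These calls need the group block and rest on few libraries. Without the block, or with additive terms for sex and genotype in its place, 0 genes were called by edgeR's quasi-likelihood test (3062 and 2952 at an unadjusted p under 0.05), while 2174 were called with limma-voom and 1825 with DESeq2, both with the block. Leaving out 1 library takes its partner out of the comparison too: the count was 948 without mutant female 1 and 928 without mutant female 2, 778 without control female 1 and 788 without control female 2, but 3544 without control male 1 and 3553 without control male 2. Of the 2181 called genes, 2173 to 2177 were tested again and kept their sign when both libraries of a group were left out. Genes dropped by the repeated filter on low counts are not counted there. These genes were called for a difference in the same pairs, so kept signs are no independent evidence.

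The libraries were of like size, with 17561012 to 20243205 reads in genes. Mitochondrially encoded genes held 2.06% ± 0.167 of reads in number 1 and 2.24% ± 0.252 in number 2 (SD, n = 4 each), a difference of -0.175 percentage points (exact two-sided permutation within groups, p = 0.375, where 0.13 is the smallest p possible). The TMM factor, which corrects for a few abundant genes taking up reads, was 0.987 ± 0.0113 in number 1 and 1.01 ± 0.00311 in number 2 (p = 0.13 by the same exact test). The part of these measures in the gene differences was not tested.

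**Figure D1:**
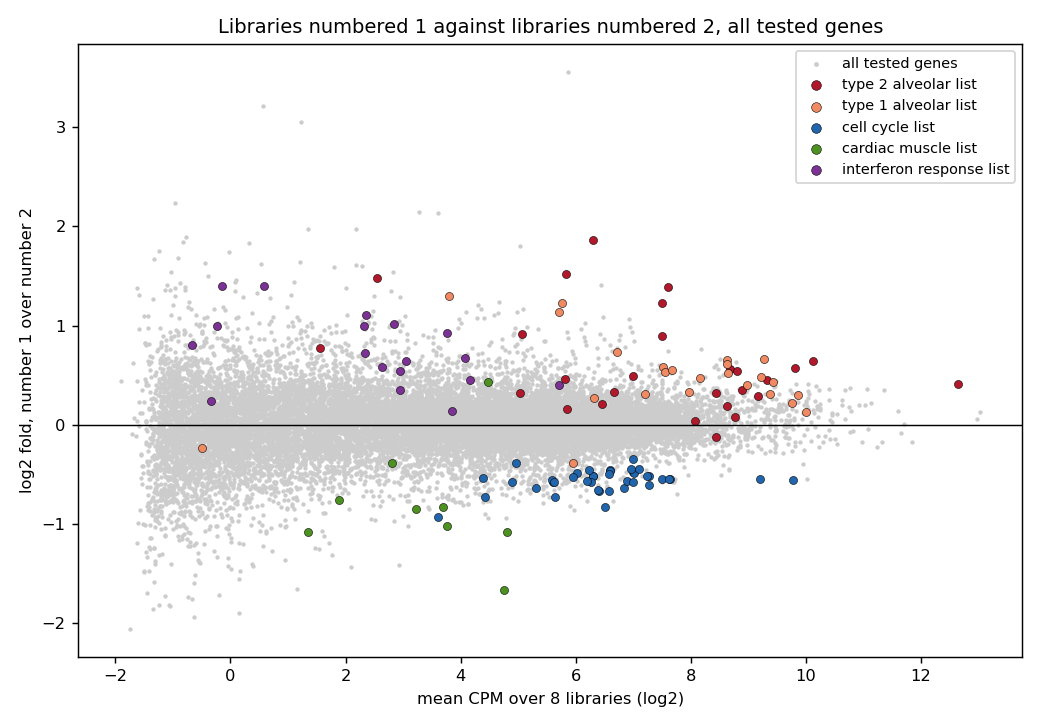
Each point is 1 of 18164 genes, with its mean CPM (log2) on the x axis and its log2 fold, number 1 over number 2, on the y axis; the colours mark 5 gene lists. Type 1 and type 2 alveolar genes lie mostly above 0, the 40 cell cycle genes lie below it, and the 18 interferon response genes lie above it.

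Promoters of some genes from the lists are shown first. The stretches run from 160 to 31 bases before the gene start of RefSeq (GRCm38.p6), written 5′ to 3′ on the gene's strand. Capitals in the cell cycle genes mark a CCAAT box (CCAAT, or ATTGG on the other strand) and the letters TTTGAA of the cell cycle homology region.

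Cdk1, chr10:69352943-69353072, minus strand: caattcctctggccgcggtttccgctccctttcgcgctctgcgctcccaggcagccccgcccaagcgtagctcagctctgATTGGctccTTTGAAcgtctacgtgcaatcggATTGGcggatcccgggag
Mki67, chr7:135716410-135716539, minus strand: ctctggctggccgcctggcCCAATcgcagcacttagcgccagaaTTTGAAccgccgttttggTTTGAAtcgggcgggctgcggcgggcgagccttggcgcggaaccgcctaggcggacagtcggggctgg

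In the antiviral gene Isg15 capitals mark a run of overlapping matches to TTTCNNTTT, the core of the interferon-stimulated response element, where N is any base. In Bnip3, a mitochondrial gene of the hypoxia list, they mark ACGTG, the core of the hypoxia response element, which occurs there on both strands as CACGTG.

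Isg15, chr4:156200849-156200978, minus strand: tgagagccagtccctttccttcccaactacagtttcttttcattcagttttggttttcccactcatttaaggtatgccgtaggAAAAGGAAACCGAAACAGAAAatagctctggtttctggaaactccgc
Bnip3, chr7:138909537-138909666, minus strand: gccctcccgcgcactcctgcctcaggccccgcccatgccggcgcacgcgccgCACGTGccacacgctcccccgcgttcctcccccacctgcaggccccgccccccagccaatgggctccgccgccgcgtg

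The letters were searched on both strands in the 250 bases before the start of every tested gene with a promoter in the table (11724 genes). The 5 motifs were chosen after the values of the lists were known. CCAAT was found in 25 of the 33 matched cell cycle genes (75.8%), against 39.4% of all tested genes. TTTGAA was found in 9 of these 33 (27.3%), against 13.0% of all. TTTCNNTTT was found in 10 of 14 interferon response genes (71.4%), against 8.5% of all, and ACGTG in 12 of 17 hypoxia genes (70.6%), against 23.8%. ACGTG was also in 8 of 14 glucocorticoid response genes (57.1%) and 9 of 21 type 1 alveolar genes (42.9%), so it did not set the hypoxia list apart by itself. In the type 2 alveolar genes, 4 of 20 (20%) held TTGCNNAA, letters bound by C/EBP factors, against 9.2% of all. These letters too were found in other lists: TTGCNNAA was in 4 of 14 glucocorticoid response genes (28.6%), CCAAT in 58.8% of the hypoxia and 57.1% of the glucocorticoid response genes, and TTTGAA in 23.8% of the type 1 alveolar genes, 4 of the 20 type 2 alveolar genes and 21.4% of the interferon genes. A match is only a run of letters and not a site shown to be bound. The counts take every matched member of a list, called or not, and make no use of the number. They describe the lists and say nothing about the difference by number.

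The surfactant system came out higher in number 1. Of 26 type 2 alveolar genes, all of which passed the filter on low counts, 19 rose and 0 fell, with a median log2 fold of 0.47 beside 0.01 over all genes. For this and every list below, the counts stand beside 6.83% of all genes higher and 5.18% lower. Sftpd (ENSMUSG00000021795, chromosome 14, 41172214 to 41185149, minus strand, GRCm38), the collectin surfactant protein D of innate defence, was at 27.5, 85.3, 166 and 59.8 CPM in number 1 and 10.1, 29.6, 57.4 and 20.1 CPM in number 2. CPM are counts scaled to the size of each library, and here and below the values of each number are given in the order mutant male, mutant female, control male and control female. Within every group the number 1 library was the higher, while the ranges of the numbers overlapped across groups. The log2 fold of Sftpd was 1.52 ± 0.07 (SE; adjusted p = 5.26e-07, edgeR), and the differences in the 4 groups, 1.44, 1.52, 1.53 and 1.57, were nearly equal.

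The other surfactant proteins rose by less. Sftpc, the hydrophobic protein C of the distal epithelium, was at 6276, 6830, 9189 and 7175 CPM in number 1 and 5034, 5629, 6516 and 4957 CPM in number 2. Its log2 fold was 0.41 ± 0.07 (adjusted p = 0.00464), and in each group number 1 was higher. Sftpb, which is needed to spread the film, rose by 0.46 and Sftpa1, the other collectin, by 0.54. The lipid transporter Abca3, which loads surfactant into lamellar bodies, rose by 0.35 and Lamp3, a protein of those bodies, by 0.56. Slc34a2, the phosphate carrier of type 2 cells, rose by 0.64, Lpcat1, which makes surfactant phosphatidylcholine, by 0.29, and the proteases Napsa and Ctsh, which process surfactant proteins, by 0.49 and 0.57.

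Other type 2 genes act in defence and in lipid synthesis. Lyz1, a lysozyme, was at 19.2, 118, 314 and 65.9 CPM in number 1 and 11, 43.8, 39.6 and 17.2 CPM in number 2, a log2 fold of 1.87 ± 0.25 (adjusted p = 0.000971). The control males differed most (2.98) and the mutant males least (0.80). Its near copy Lyz2 rose by 0.90, and no source used here says how reads shared by these copies were counted. Scd1, a fatty acid desaturase, was at 52.1, 268, 691 and 186 CPM in number 1 and 33.8, 124, 125 and 77.8 CPM in number 2. It rose by 1.39, beside Fasn, the fatty acid synthase, which rose by 0.45.

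Hc, a complement component, was at 161, 271, 429 and 163 CPM in number 1 and 81.5, 115, 146 and 74.7 CPM in number 2, and it rose by 1.23 ± 0.08 (adjusted p = 3.59e-05). The calcium-binding gene S100g rose by 1.48, Cd74, the invariant chain of antigen presentation, by 0.91, Cebpa, a transcription factor of alveolar maturation, by 0.33, and the surface mucin Muc1 by 0.32. The remaining 7 genes of the list were not called. They include Nkx2-1, the master factor of lung epithelium, with 430, 456, 483 and 422 CPM in number 1 and 363, 392, 534 and 429 CPM in number 2 (log2 0.07, adjusted p = 0.571). Etv5 stood at -0.13, Sfta2 at 0.21, Dram1 at 0.19, Elovl1 at 0.15, Egfl6 at 0.04 and Chia1 at 0.78. When both libraries of a group were left out, 12 to 20 genes of the list were called higher, the 12 without control females, and 0 lower.

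Type 1 alveolar genes moved the same way and by a like amount: 20 of 24 rose, 0 fell, and the median log2 fold was 0.47. Rtkn2 (ENSMUSG00000037846, chromosome 10, 67979570 to 68059740, plus strand), used as a type 1 cell marker, was at 55.4, 101, 103 and 46.5 CPM in number 1 and 27.3, 35.2, 39.5 and 24 CPM in number 2. All 4 number 1 values lay above all 4 number 2 values, and the log2 fold was 1.23 ± 0.09 (adjusted p = 5.63e-05). Ager, the receptor for advanced glycation end products that marks the flat cells, was at 402, 753, 1091 and 765 CPM in number 1 and 251, 465, 735 and 465 CPM in number 2, a log2 fold of 0.67 ± 0.06 (adjusted p = 0.00019). Its differences ran from 0.57 in control males to 0.72 in control females.

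Aqp5, the apical water channel, had 1.18, 7.21, 53.5 and 19.2 CPM in number 1 and 0.440, 4.77, 17.4 and 7.10 CPM in number 2, and it rose by 1.30. The group set most of its level, since number 2 control males lay above number 1 mutants of either sex. Spock2, a matrix proteoglycan, rose by 1.14, Col4a3 and Col4a4, the basement membrane collagens of the air-blood barrier, by 0.73 and 0.53, and Vegfa, the growth factor through which type 1 cells signal to capillaries, by 0.65. Timp3, a metalloprotease inhibitor, rose by 0.62, Hopx, a transcriptional cofactor, by 0.55, and Sec14l3, a lipid transfer protein, by 0.59. Clic5 and Clic3, of the chloride intracellular channel family, rose by 0.52 and 0.27. Emp2, Gprc5a, Akap5, Lmo7, Krt7, Cav2, Agrn and Ahnak rose by 0.30 to 0.48. Cldn18, a tight junction claudin (0.22), Cav1, the coat protein of caveolae (0.13), and Igfbp2 (-0.39) were not called, and Cyp2b10, under 1 CPM, was not either. Without both libraries of a group 15 to 21 genes of the list were called higher. Without mutant males 1 was called lower, Igfbp2 (adjusted p = 0.00806, edgeR).

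**Figure D2:**
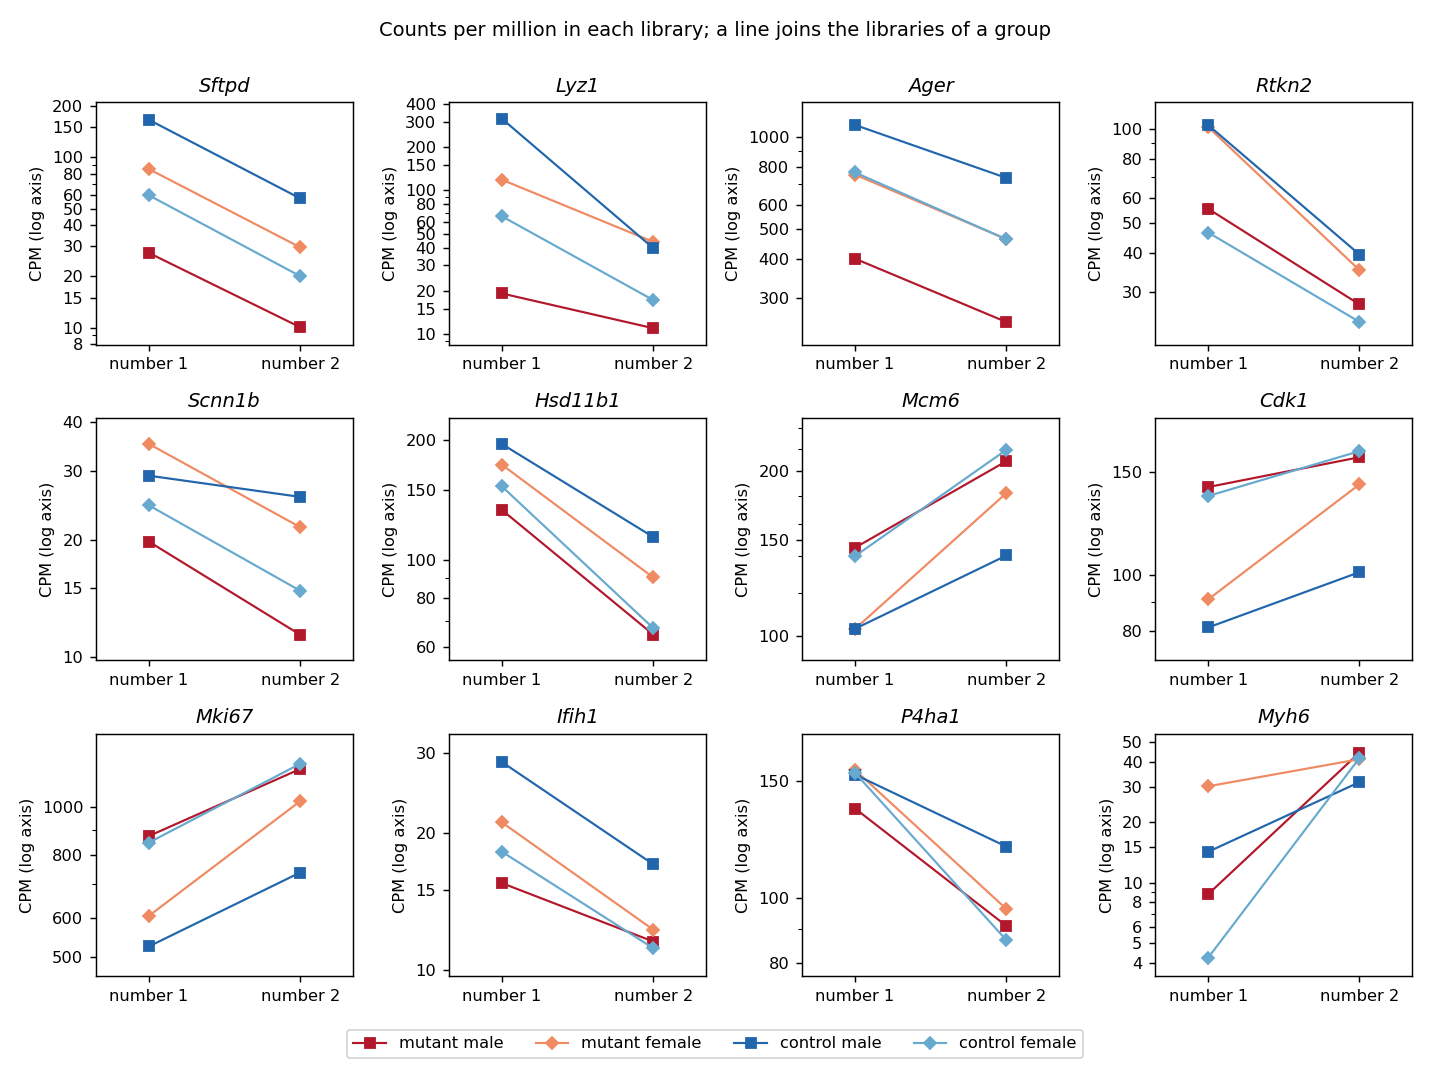
CPM on a log axis (y) in the number 1 and number 2 libraries (x) for 12 genes, with a line joining the 2 libraries of each group. Sftpd lines fall to number 2 at nearly equal slopes (1.44 to 1.57 on the log2 scale). Ager lines fall in every group too, as do those of Rtkn2 (0.95 to 1.52) and Hsd11b1 (0.78 to 1.19), with less equal slopes. Mcm6, Cdk1 and Mki67 lines climb to number 2. Myh6 differs little in mutant females (30.2 against 41.1 CPM) and most in control females (4.24 against 41.7 CPM).

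Dividing cells showed the reverse. All 40 genes of the cell cycle list were tested and all 40 fell in number 1, each in every group, with log2 folds from -0.94 (Ccne1, the cyclin of entry into DNA synthesis) to -0.35 (Cdk1, the kinase that starts mitosis) and a median of -0.55. Mki67, the antigen of cycling cells, was at 873, 605, 525 and 848 CPM in number 1 and 1190, 1026, 738 and 1218 CPM in number 2, a log2 fold of -0.56 ± 0.07 (adjusted p = 0.000847). Mcm6, a subunit of the replicative helicase, was at 145, 103, 103 and 140 CPM in number 1 and 209, 182, 140 and 219 CPM in number 2 (-0.61 ± 0.07, adjusted p = 0.000598). The helicase subunits Mcm2 and Mcm3 both stood at -0.67. Cdk1 was at 141, 90.8, 81.3 and 137 CPM in number 1 and 159, 143, 101 and 163 CPM in number 2, so that its ranges overlapped across groups, and it was not called without the mutant female pair (adjusted p = 0.0744).

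The 10 largest falls among genes of at least 5 CPM with 1 sign in all groups held 4 genes of DNA replication outside that list. These were Dscc1 of the clamp loader (-0.98), Orc1 of the origin recognition complex (-0.97), Chaf1b, which lays histones on new DNA (-0.94), and Mcm10, an initiation factor (-0.94 ± 0.09). Pcdh7, a cell adhesion gene, stood at -0.96, and the other 5 are given below. Mcm10 was at 25.7, 15.7, 11.5 and 24.6 CPM in number 1 and 44.4, 35, 25.3 and 40.4 CPM in number 2. The mean of the cell cycle list (log2 CPM centred on each gene) was 0.03, -0.53, -0.64 and 0.02 in number 1 and 0.47, 0.30, -0.15 and 0.51 in number 2. The shift by number was largest in mutant females, where the list median was -0.82, and lay between -0.43 and -0.49 in the other groups. Without both libraries of a group 37 to 40 of the 40 were still called. In bulk tissue fewer cells of a kind and less RNA per cell cannot be told apart, here and for every list below.

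Genes that answer to glucocorticoid hormone were higher in number 1: 11 of 18 rose, 0 fell, and the median log2 fold was 0.48. Hsd11b1 (ENSMUSG00000016194, chromosome 1, 193221634 to 193264075, minus strand), the enzyme that turns inert steroid into active hormone inside cells, was at 133, 174, 196 and 153 CPM in number 1 and 64.6, 90.1, 114 and 67.1 CPM in number 2. The lowest number 1 value thus lay above the highest number 2 value, and the log2 fold was 0.99 ± 0.07 (adjusted p = 4.34e-05). Klf9, a direct target of the hormone's receptor, was at 38.5, 58.7, 76.4 and 50.5 CPM in number 1 and 20.6, 29.8, 50.9 and 26.3 CPM in number 2 (0.85 ± 0.08). Cebpd, a transcription factor induced by the hormone, rose by 0.96, the cell cycle inhibitor Cdkn1a by 0.92, the clock gene Per1 by 0.45 and Fkbp5, which damps receptor activity, by 0.27. The receptor gene itself, Nr3c1, was at 254, 267, 284 and 292 CPM in number 1 and 236, 247, 247 and 254 CPM in number 2 and was not called (0.15, adjusted p = 0.108). Mt1, a metallothionein of the list, was not called over all groups (0.50, adjusted p = 0.18).

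Genes of ion and fluid transport followed. Of 14, 9 rose and 0 fell, with all 14 fitted folds above 0 and a median of 0.36. The epithelial sodium channel, whose 3 subunits absorb lung liquid at birth, was higher in each subunit. Scnn1a was at 65.6, 155, 220 and 131 CPM in number 1 and 31.5, 80.8, 169 and 75.5 CPM in number 2 (0.78 ± 0.09, adjusted p = 0.000729). Scnn1b rose by 0.59 and Scnn1g by 0.71. The difference was smallest in control males for all 3 subunits (0.38, 0.18 and 0.44). Aqp1, the water channel of capillaries, was at 282, 486, 399 and 295 CPM in number 1 and 176, 226, 279 and 172 CPM in number 2, and it rose by 0.77. Atp1b1, the beta subunit of the sodium pump, rose by 0.42 and Cftr, the chloride channel, by 0.24.

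Markers of the immature state were mostly not called. Of 13 distal tip progenitor genes, which mark the branching ends of the epithelium, 0 rose and 1 fell. Over all genes 6.83% rose and 5.18% fell. The median log2 fold of the list was -0.13. Fitted folds were below 0 for 9 of the 13, and 5 of the 13 were lower in all 4 groups, beside 15.4% of all genes. Without control females 0 fell and without control males 2 did. The gene that fell was Sox11 (-0.31 ± 0.07, adjusted p = 0.0149), which was at 63.9, 54.9, 56.1 and 57.0 CPM in number 1 and 80.6, 59.3, 77.5 and 70.7 CPM in number 2. Sox9, the defining factor of the tips, was at 77.8, 50.7, 34.0 and 42.8 CPM in number 1 and 73.3, 49.0, 47.9 and 56.0 CPM in number 2. It was slightly higher in number 1 in both mutant groups and lower in both control groups, and was not called (-0.18, adjusted p = 0.265). Etv4 (-0.31), Etv5 (-0.13), Foxp2 (-0.24), Wnt7b (-0.19), Mycn (-0.18), Bmp4 (-0.10), Id2 (-0.04), Gata6 (0.07), Spry2 (0.09), Shh (0.12) and Fgfr2 (0.15) were not called.

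The Lin28 and let-7 genes, which time the passage from fetal to later programmes, went both ways. Of 9, 2 fell and 2 rose, beside 5.18% and 6.83% of all genes, but none was called without mutant females or without control females. The chromatin proteins Hmga2 (-0.42 ± 0.09, adjusted p = 0.0123) and Hmga1 (-0.37) fell, and the RNA-binding protein Igf2bp2 (0.25) and the DNA-binding protein Arid3a (0.38) rose. Hmga2 was at 25.4, 16.4, 18.0 and 18.0 CPM in number 1 and 28.8, 23.5, 27.7 and 23.1 CPM in number 2. Igf2bp1 (0.01), Igf2bp3 (-0.03), Trim71 (-0.24), Arid3b (0.13) and the scarce Lin28b (-0.51) were not called. Embryonic globins, made by the first red cells, were scarce and disagreed between groups. Hbb-y was at 5.33, 1.68, 2.73 and 1.68 CPM in number 1 and 1.81, 3.23, 2.82 and 4.71 CPM in number 2. Neither Hbb-y (-0.18) nor Hba-x (0.28) was called. Of 16 imprinted growth genes 1 rose, the noncoding Meg3 (0.49), where 6.83% of all genes rose and 5.18% fell. In the same list 3 fell, Peg10 (-0.50), Slc38a4 (-0.28) and Plagl1 (-0.33). Of these 1 and 0 were called lower without mutant females and without control females. Read against the name maturation axis, the alveolar, fluid transport and cell cycle lists moved as that name says. The tip, let-7 timing and globin lists had few calls or calls both ways. All these lists were chosen with earlier results of these data known, so their agreement is no test of the name.

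**Figure D3:**
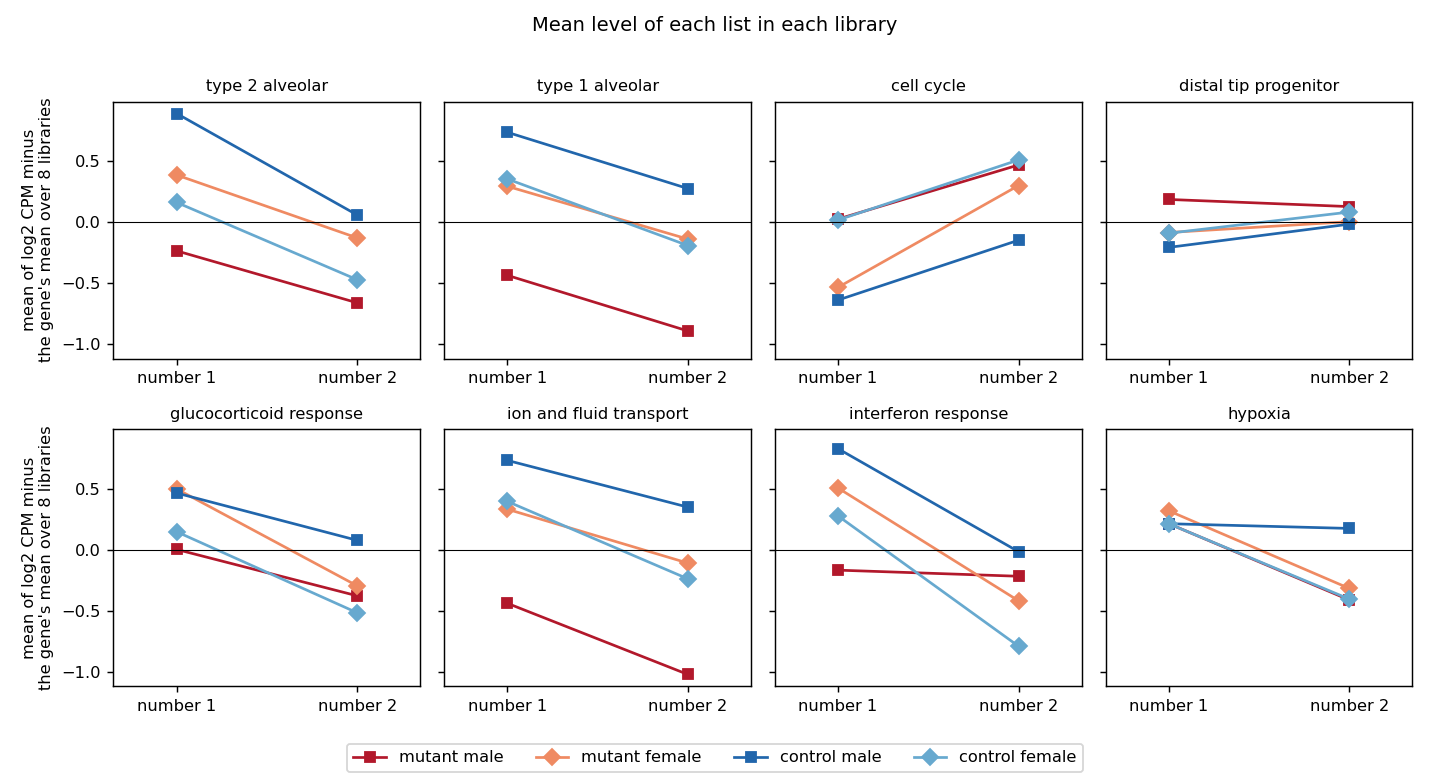
Mean level of 8 gene lists (y axis, log2 CPM minus each gene's mean over 8 libraries) in number 1 and number 2 (x axis), 1 line per group. The alveolar, glucocorticoid and ion transport lines fall to number 2 in all 4 groups, the cell cycle lines climb in all 4, and the distal tip lines are nearly flat.

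With the same limits on level and sign as for the falls above, the 10 largest rises included several secreted proteins of defence. Chil1 (ENSMUSG00000064246, chromosome 1, 134182176 to 134190181, plus strand), a chitinase-like protein, was at 5.49, 96.6, 313 and 25.0 CPM in number 1 and 2.20, 6.68, 14.3 and 4.05 CPM in number 2. The size varied between groups, from 1.28 in mutant males to 4.44 in control males on the log2 scale, and the fitted value was 3.56 ± 0.32 (adjusted p = 0.00019), an 11.8-fold difference. Spink5, a serine protease inhibitor, was at 2.32, 12.9, 41.4 and 7.55 CPM in number 1 and 0.977, 2.54, 7.59 and 2.00 CPM in number 2 (2.15 ± 0.17). Lcn2, the iron-trapping lipocalin that is also in the glucocorticoid list, rose by 2.14, complement C3 by 1.81, the cytochrome P450 Cyp2e1 by 1.54 and ceruloplasmin, Cp, by 1.41. Cp was at 72.7, 161, 168 and 107 CPM in number 1 and 34.9, 52.8, 67 and 34.7 CPM in number 2, with no overlap between the numbers. Lyz1, Sftpd, S100g and Scd1 complete the 10. Which cells of the whole lung made them was not tested.

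Airway genes moved less evenly. Of 18 club cell genes 8 rose and 1, Aldh1a7, fell (-0.42), with a median of 0.36. Scgb1a1, the main secreted protein of club cells, was at 3.39, 21.7, 105 and 46.2 CPM in number 1 and 0.977, 23.3, 38.5 and 13.0 CPM in number 2. It was higher in number 1 in 3 groups, by 1.69, 1.44 and 1.82 on the log2 scale, and level in mutant females (-0.10; adjusted p over the 4 groups = 0.0125). Ces1d, a carboxylesterase, rose by 0.53, Hp, haptoglobin, by 0.62, Selenbp1 by 0.47 and Aldh1a1, which makes retinoic acid, by 0.66. Of 28 ciliated cell genes 5 rose, where 6.83% of all genes did: Dnah11 (0.29), a dynein of the ciliary arms, Cfap43 (0.35), Cdhr3 (0.51), Tppp3 (0.33) and Ccdc153 (0.43). Foxj1, the master factor of motile cilia, was not called (0.15, adjusted p = 0.346). The median of the ciliated list was 0.20 in mutant males, -0.09 in mutant females, -0.05 in control males and 0.54 in control females. Without the pair of 1 group 0, 1, 8 and 0 of these genes were called higher, in the same order of groups, and 4 club cell genes without control females. Of 5 basal cell genes, Trp63 (-1.29) and Krt17 (-1.25) fell and Aqp3 (1.5) rose, all of them at few reads.

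In the mesenchyme, genes of alveolar fibroblasts and lipofibroblasts, which hand lipid to type 2 cells, were higher: 10 of 14 rose, 0 fell, median 0.33. Tcf21, their lineage factor, was at 274, 331, 311 and 304 CPM in number 1 and 227, 238, 231 and 210 CPM in number 2, without overlap (0.43 ± 0.06, adjusted p = 0.00142). Inmt, a methyltransferase of lung fibroblasts, was at 3.66, 6.18, 5.40 and 1.39 CPM in number 1 and 0.195, 0.848, 0.831 and 0.166 CPM in number 2, a log2 fold of 3.06 ± 0.26 (adjusted p = 9.41e-05). All its number 2 values lay below 1 CPM and rest on few reads, so the size of this fold is imprecise. G0s2, a lipase inhibitor, rose by 0.55, Pparg, the factor of lipid storage, by 0.42 and Pdgfra, the receptor of alveolar fibroblasts, by 0.24. Without the pair of mutant females or of control females 4 genes of the list were called.

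Matrix genes split. Eln, elastin, was at 1272, 2129, 3955 and 2418 CPM in number 1 and 1038, 1777, 2783 and 1856 CPM in number 2 and rose by 0.36 ± 0.07 (adjusted p = 0.00572). Fbln5, which guides elastic fibre assembly, rose by 0.40 and Lox, the cross-linking enzyme, by 0.26, while Fbn2, the fetal fibrillin, fell by 0.28 and Fbln2 fell by 0.37 on the log2 scale. Of 14 collagens outside cartilage 6 rose and 0 fell, among them Col6a1 (0.41), Col6a3 (0.34) and Col4a2 (0.36). Smooth muscle genes had 1 fall in 13 (Cnn1, -0.81) and 0 rises, where 5.18% of all genes fell and 6.83% rose. Pericyte genes had 3 rises in 10: Higd1b (0.72), Trpc6 (0.50) and Cspg4 (0.37). Without control females 1 elastic fibre and 1 pericyte gene rose, without control males 6 elastic fibre genes did, and without mutant females 2 collagens did. Without mutant females or without control females 0 elastic fibre genes fell. Lox and Fbn2 were each called in 1 of the 4 fits without both libraries of a group.

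Mesothelium, the sheet that covers the lung, had 5 rises in 9 genes and all 9 fitted folds above 0. Msln, mesothelin, was at 32.9, 114, 315 and 208 CPM in number 1 and 17.7, 80.5, 172 and 96.5 CPM in number 2 (0.84 ± 0.09, adjusted p = 0.000374). Upk1b rose by 0.72, Upk3b by 0.62, the retinoic acid enzyme Aldh1a2 by 0.48 and Rspo1 by 0.40. Without mutant females 3 of the 9 were called.

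Of 11 general endothelial genes 1 rose (Emcn, 0.26), where 6.83% of all genes rose and 5.18% fell. Emcn was called in 2 of the 4 fits without both libraries of a group. Of 12 genes of a mature capillary list 5 rose and 1 fell. Gpihbp1, the capillary anchor of lipoprotein lipase, was at 42.3, 54.0, 52.0 and 41.0 CPM in number 1 and 20.1, 20.7, 34.5 and 22 CPM in number 2, without overlap (0.98 ± 0.11, adjusted p = 0.00046). Car4, carbonic anhydrase 4 of alveolar capillaries, rose by 1.59, Cd36 by 0.44, Prx by 0.34 and Nostrin by 0.31. Aplnr, the apelin receptor, was the gene of this list that went the other way and fell, by 0.58. It was at 157, 118, 143 and 162 CPM in number 1 and 249, 214, 166 and 242 CPM in number 2. Of 17 macrophage genes 4 rose and 0 fell, beside 6.83% and 5.18% of all genes. The 4 were Ctss (0.55), Adgre1 (0.44), Tyrobp (0.33) and Csf1r (0.28). Within the mutant groups 0 genes of the list were called. Without control females 2 of the capillary genes and 0 of the macrophage genes rose, without mutant females 3 and 1, and without mutant males 2 macrophage genes.

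**Figure D4:**
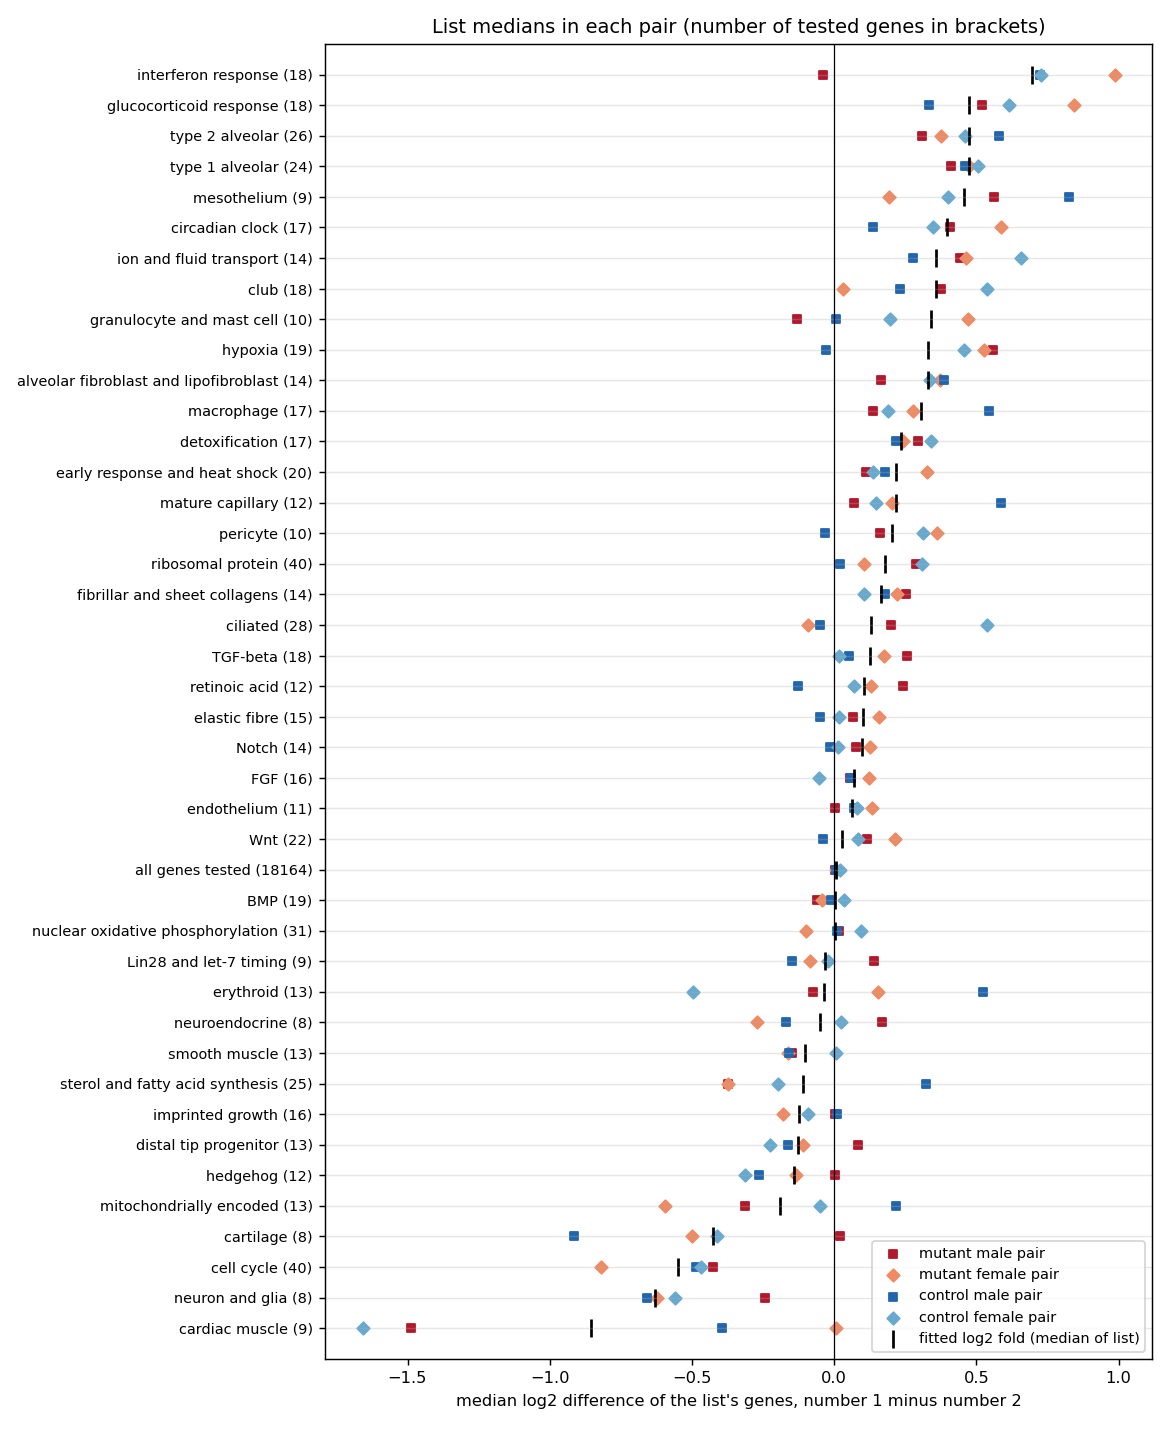
Median log2 difference, number 1 minus number 2, of the genes of each list (rows, number of tested genes in brackets) in each group (symbols), with a bar at the fitted median. The 4 groups lie close together for type 1 alveolar genes (0.41 to 0.51) and far apart for cardiac muscle genes (-1.66 to 0.01).

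Some lists moved in most groups but not all. Of 18 interferon response genes, which are switched on by antiviral signalling, 12 rose and 0 fell, with a median of 0.69, yet the median in mutant males was -0.04 beside 0.99 in mutant females, 0.72 in control males and 0.73 in control females. Ifih1, a sensor of viral RNA, was at 15.5, 21.1, 28.7 and 18.2 CPM in number 1 and 11.5, 12.2, 17.1 and 11.1 CPM in number 2 (0.67 ± 0.09, adjusted p = 0.00125). Isg15, the ubiquitin-like protein whose promoter is shown above, was at 1.51, 2.17, 3.23 and 1.80 CPM in number 1 and 1.32, 0.848, 0.609 and 0.444 CPM in number 2 (1.40 ± 0.33, adjusted p = 0.0158; 0.0921 without the control female pair). Bst2, tetherin, rose by 0.45. Without control females 2 genes of this list were called, without mutant females 4, and with DESeq2 7.

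Hypoxia genes, targets of the oxygen-sensed factor HIF, had 11 rises in 19 and 0 falls, with a median of 0.33 that was -0.03 in control males. P4ha1, a collagen prolyl hydroxylase, was at 136, 156, 153 and 154 CPM in number 1 and 90.9, 96.3, 119 and 86.5 CPM in number 2, without overlap (0.62 ± 0.08, adjusted p = 0.000795). Bnip3, whose promoter is shown above, was at 43.6, 45.0, 42.5 and 39.0 CPM in number 1 and 20.6, 22.1, 35.9 and 18.0 CPM in number 2 (0.86 ± 0.13). In both genes the number 2 control male library lay above the other number 2 libraries. Without the pair of mutant males, mutant females, control males and control females 7, 4, 17 and 3 genes of the list were called, and with DESeq2 7.

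Clock genes, which cycle with the time of day, had 9 rises in 17 and 0 falls, with a median of 0.40. Tef, a clock output factor, was at 164, 233, 240 and 196 CPM in number 1 and 114, 152, 217 and 139 CPM in number 2 (0.45 ± 0.08, adjusted p = 0.00355), Per2 rose by 0.40 and the repressor Bhlhe40 by 0.85. Early response genes, which answer within minutes to stimulation or handling, had 5 rises and 1 fall in 20, beside 6.83% and 5.18% of all genes. Ier3 (0.78) and Junb (0.64) were among the rises. The fall was Egr1, which was at 6.46, 5.32, 6.07 and 4.47 CPM in number 1 and 12.1, 12, 8.2 and 13.5 CPM in number 2 (-1.03 ± 0.16, adjusted p = 0.00241, edgeR). Without mutant females or without control females 5 clock and 3 early response genes rose. Their part in the lung lists was not tested.

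Genes of signalling pathways had list medians from -0.14 for hedgehog to 0.13 for TGF-β, beside 0.01 over all genes. The counts below stand beside 6.83% of all genes higher and 5.18% lower. Of 18 TGF-β pathway genes 4 rose, among them the target Ctgf (0.52), the co-receptor Tgfbr3 (0.39) and the inhibitor Skil (0.22), and 0 fell. Of 22 Wnt genes 3 rose, the feedback inhibitors Nkd1 (0.67) and Axin2 (0.26) and Dkk3 (0.32). Of 19 BMP genes 2 rose, among them the ligand Bmp6 (0.85). Of 12 hedgehog genes 2 fell, among them the transcription factor Gli3 (-0.45), and of 16 FGF genes Fgfr4 (0.25) rose. Fgfr4 was called in 0 of the 4 fits without both libraries of a group, and 0 FGF genes were called with DESeq2. In sterol and fatty acid synthesis 4 of 25 rose, among them Scd2 (0.35), and 4 fell, among them Elovl6 (-0.67) and Sqle (-0.54). These small counts moved with the groups used: without control males 8 TGF-β and 6 Wnt genes rose and 16 sterol and fatty acid genes fell, while without any other group 1 Wnt gene rose. Without mutant females 1 sterol gene rose and 1 fell, and without control females 2 rose and 1 fell.

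Some genes of other tissues were lower in number 1, chiefly of heart and nerve. Cardiac muscle forms the sleeve around pulmonary veins in mice as well as the heart, and 5 of 9 cardiac genes fell, Myh6, Actc1, Myl7, Myl4 and Tnnt2, with a median of -0.85. Myh6 (ENSMUSG00000040752, chromosome 14, 54941921 to 54966927, minus strand), the atrial myosin heavy chain, was at 8.78, 30.2, 14.3 and 4.24 CPM in number 1 and 44.4, 41.1, 31.6 and 41.7 CPM in number 2, without overlap, and it fell by 1.67 ± 0.32 on the log2 scale (adjusted p = 0.00642). Actc1 fell by 1.08, Myl7 by 1.02 and Ttn, the giant sarcomere spring, by 1.42. The 9 genes summed to 60.0 to 141 CPM in number 1 and 151 to 173 CPM in number 2. Neuron and glia genes had 4 falls in 8, Stmn2 (-0.53), Fabp7 (-0.80), Prph (-1.59) and Elavl4 (-1.87), and 1 fitted fold above 0. These 8 genes summed to 194 to 212 CPM in number 1 and 153 to 209 CPM in number 2, so their sum was not lower. Of 8 cartilage genes Col11a2 fell (-0.49); without mutant males 4 of them fell, without control males 2 and without either female pair 0. Also the keratin Krt4 of oesophagus, at 1.05 CPM or less in number 1 and 0.440 to 2.86 CPM in number 2, fell as well. Of 13 erythroid genes, with a median of -0.04, only Hba-a2 fell (-0.70), where 5.18% of all genes fell. How reads shared by Hba-a2 and its near copy were counted is not given in any source used here. Without mutant males or without control females 2 cardiac genes fell, and 2 with DESeq2. Neuron and glia falls numbered 2 without mutant males, 0 without mutant females or control females and 1 with DESeq2. In the same list 1 gene was called higher with DESeq2, and 1 without control males. None of 7 skeletal muscle genes (median -0.19), of 3 lymphoid and thymus genes (0.18) or the 1 liver gene tested was called. The part of these tissues in the other differences was not tested.

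Ribosomal protein genes, which can follow RNA quality, had 11 rises in 40 and 0 falls, beside 6.83% and 5.18% of all genes. Their median was 0.18, with Rps7 at 0.32, Rps14 at 0.31 and Rpl37 at 0.32. Such genes have many processed copies, so their counts are uncertain. Without the pair of mutant males, mutant females, control males and control females 0, 1, 24 and 0 of them were called. No gene of the 31 nuclear oxidative phosphorylation genes or of the 13 mitochondrially encoded genes was called over all groups (edgeR quasi-likelihood). The mitochondrially encoded list had medians of -0.31, -0.59, 0.22 and -0.05 in mutant males, mutant females, control males and control females. Of its 13 genes 6 were called lower without control males, and 8 were called within the mutant groups.

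**Figure D5:**
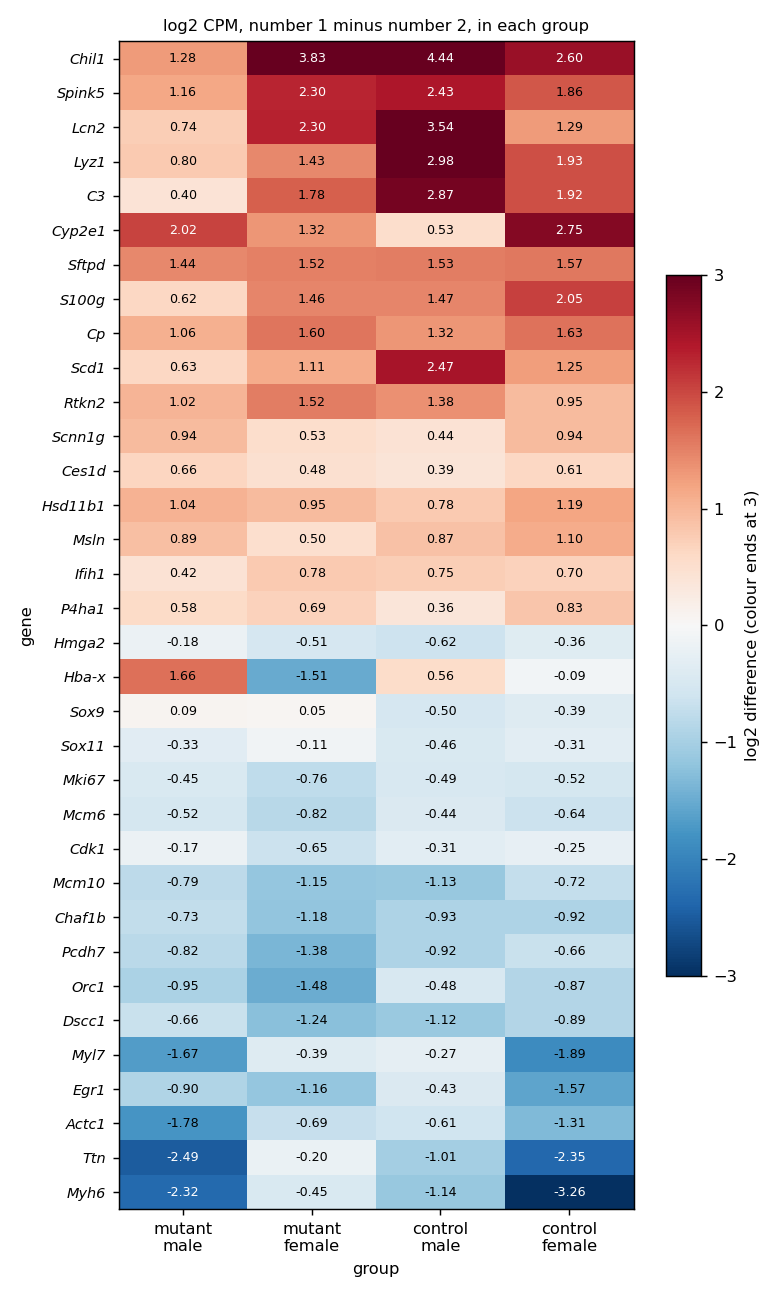
Log2 CPM of number 1 minus number 2 in each of the 4 groups (columns) for 34 genes (rows), with the value printed in each cell and red for higher in number 1. Sftpd varies little between groups (1.44 to 1.57), Chil1 widely (1.28 to 4.44), and Hba-x changes sign.

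The groups did not share the number difference equally. Across the 12793 genes whose mean log2 CPM was 2 or more, the differences in the 4 groups had correlations from 0.180, between mutant males and control males, to 0.626, between mutant males and mutant females; these are descriptions across genes, which are not independent, and no 2 differences share a library. Of the sum of squares over these genes, the 3 degrees of freedom of the group held 59.05%, the 1 of the number 25.1% and the 3 left over 15.8%. The list means show how these add up: type 2 alveolar genes were at -0.24, 0.39, 0.89 and 0.16 in number 1 and -0.66, -0.13, 0.06 and -0.47 in number 2 (log2 CPM centred on each gene). The number 1 mutant male library was thus below the number 2 control male and mutant female libraries.

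Within the mutant groups alone 1783 genes were called by number (9.82%), 966 higher (5.32%) and 817 lower (4.50%) in number 1. Within the control groups alone 837 were called (4.61%), 497 higher (2.74%) and 340 lower (1.87%). Of the 837, 804 (96.1%) had the same sign in mutants and 456 (54.5%) were called there too, where 65.0% of all genes had the same sign in both. Of the 1783 mutant calls 1597 (89.6%) had the same sign in controls. The difference between the mutant and control effects was itself tested and called 0 genes (0%), with 1796 at an unadjusted p under 0.05; limma-voom and DESeq2 called 0 as well. Without control female 1 or 2 it called 558 and 543 genes, without control male 1 or 2 60 and 14, without mutant male 1 or 2 14 and 1, and 1 without either mutant female library, where 1 group is left with no pair.

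Within males 129 genes were called by number (0.710%), 86 higher (0.473%) and 43 lower (0.237%) in number 1. Within females 977 were called (5.38%), 550 higher (3.03%) and 427 lower (2.35%). The test of the difference between the sexes called 2 genes (0.0110%), among them Mt1, with 378 at an unadjusted p under 0.05. Mt1 (ENSMUSG00000031765), a metal-binding metallothionein that glucocorticoid and zinc induce, was at 28.1, 56.6, 29.2 and 46.2 CPM in number 1 and 26.6, 26.2, 40.5 and 18.9 CPM in number 2. The number effect was -0.20 in males and 1.2 in females, a difference of -1.40 ± 0.20 (SE; adjusted p = 0.0424). Mt1 did not pass with limma-voom or with a filter of a mean of at least 1 CPM, and leaving out 1 library gave counts of 17 to 240, the highest without mutant male 2 (240) and mutant male 1 (192).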

How the data were processed

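Total RNA of 8 whole lungs was sequenced from TruSeq v2 libraries, per the labels' protocols. Per the submitters' processing notes the tools included STAR 2.5.2b and HTSeq 0.6.1p2, beside Trimmomatic 0.35, edgeR 3.16.5 and cutadapt 1.13; the notes give neither roles nor order. No source used here names the genome build, the annotation or the treatment of strand and shared reads. The authors deposited raw read counts per gene and library, per the file headers. Also deposited beside them are RPKM values, gene lengths and exon numbers, and the authors' mutant against control comparison, with its log2 columns, a score of the likelihood ratio and each gene's p-value and false discovery rate. None of these was used. No gene of the deposited table had fewer than 28 reads in all.

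From the counts, genes were kept by filterByExpr with a minimum count of 10 (18164 of 19150) and fitted in edgeR 4.0.16 (R 4.3.3): TMM scaling, quasi-likelihood F tests, a model of group and number with 3 residual degrees of freedom, and Benjamini-Hochberg adjustment at 0.05. Differences of the number effect by genotype and by sex were fitted as interactions (2 residual degrees of freedom). Tests were two-sided. CPM used the TMM-scaled library size, and log2 CPM a prior count of 2. Depth was 17561012 to 20243205 reads, so a gene near 1 CPM rests on few reads and is imprecise. The fits were checked on simulated counts. Alternatives were RLE scaling, other filters, DESeq2 1.42.0, limma-voom (limma 3.58.1), fits without the block and without each library or pair.

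The 2 libraries of a group differed by 14.6 to 21.2 times the sampling variance and were counted as separate samples. The comparison and the 50 gene lists (730 of 798 symbols found, 719 tested) were chosen with earlier results of these data known. Genes were named by rule: the 10 largest called rises and falls of at least 5 CPM with 1 sign in all 4 groups, up to 3 genes per list with the smallest p and at least 1 CPM, all such genes of the alveolar, tip, let-7 timing and globin lists, and up to 5 called in each interaction, passing over unnamed predicted genes. Some genes that the rule names are not reported here. Other named genes, such as Cdk1, Mki67, Scgb1a1, Scnn1b, Scnn1g, Nr3c1 and Fkbp5, were chosen after their values were seen. Coordinates and Ensembl IDs follow GENCODE M21 (GRCm38), and promoters come from the RefSeq table (GRCm38.p6).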

Additional observations from a re-analysis of the deposited data

Results flagged for a closer look

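Among 412 sets of 4 libraries of 1 number (206 genes), 18 held a library far from the other 3 by Dixon's test, which chance gives in about 1 in 20. The 18 are thus no more than chance gives, and the genes are not independent of each other. The number 2 control male library stood apart most often, with high values for Gpihbp1 (34.45 CPM, others 20.08 to 21.96), Igf2bp1 (62.15), Col4a2 (1340) and Cspg4 (85.86 CPM), and low values for Adgre1 (8.364), Id2 (153), Fbln2 (26.48) and Elovl6 (18.33 CPM, others 28.98 to 31.75). The number 2 mutant male library was high for Rps7 (914) and low for Trim71 (7.913) and Cnn1 (4.396 CPM). The number 1 mutant male library was high for Egfl6 (323.3) and low for P4ha1 (136.3), Emcn (155.9) and Btg2 (165.4 CPM). The number 1 mutant female library was high for Dnah11 (65.41) and low for Gata6 (64.82 CPM), and the number 2 control female library was low for Emcn (138 CPM).

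The number effect differed between males and females in the test of the difference itself for Mt1 (male minus female -1.401, adjusted p = 0.0424, edgeR quasi-likelihood).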

How the results depend on the processing

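The count of 2181 genes called by number became 2199 with RLE scaling, 2167 with no filter, 2127 with a mean of at least 1 CPM, 1825 with DESeq2 and 2174 with limma-voom, and 0 both with no group block and with sex plus genotype in its place. Without 1 library it ran from 778 to 3553, and without both libraries of a group it was 747 (control females), 847 (mutant females), 1461 (mutant males) and 3508 (control males). The count for mutant against control pairs was 0 in the other settings and 1 to 558 without 1 library. That for male against female pairs was 0 with a mean of at least 1 CPM and with limma-voom, and 17 to 240 without 1 library. Of the 206 genes followed, none of the 175 called ones changed sign in these settings, while some that were not called did, such as Id2 (-0.23 to 0.05 without a pair) and Hba-x (-0.27 to 0.76). No paired analysis was possible beyond the group block because the replicate number is itself the term tested. With 4 pairs and 3 residual degrees of freedom, calls near the threshold and genes of few reads, such as Prph, Elavl4 and Krt17, are least certain; the cause of the shifts by library was not tested.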
